A study of Mus musculus with 96 samples.

Results

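Control EL4 cells from 2 cultures, WT1 and WT2, were compared with each other by single-cell RNA-seq. A cell was kept when at least 3000 genes had a TPM (a level scaled for transcript length and for the total of its cell) above 0, which left 47 control cells, 24 of WT1 and 23 of WT2, out of 96 cells deposited and 95 kept in the whole series. The WT2 cell left out had 81 genes above 0. EL4 is a T lymphoma line of the mouse strain C57BL/6 (C57BL/6 N in the study's methods). The study knocked down the chromatin protein CTCF in this line and asked how variation between cells depends on it. The control cells, labelled wild type, had been infected with retrovirus encoding GFP and a short hairpin RNA against luciferase (shLuc), a gene that mouse cells lack. They were sorted for GFP 5 days after infection, so the cells called WT are infected and sorted cells and not untouched ones. WT1 belonged to the initial experiment and WT2 to the second, and each had a knockdown culture beside it (CTCFKD1 and CTCFKD2, with an shRNA against Ctcf, also 24 cells each). The methods list 2 hairpins against Ctcf without saying which culture carried which, so the knockdown cultures may also differ in the hairpin used. A separate Fluidigm C1 circuit captured each culture, which holds single cells in separate chambers, and whole transcripts were amplified. Culture, circuit, infection and experiment therefore cannot be told apart, and a difference between WT2 and WT1 rests on 1 culture per side. No test of that difference can be had, and the SDs below give the spread over cells only.

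Mature T cells recognise antigen through the T-cell receptor, whose signal is carried by the CD3 chains and the kinase LCK and is modulated by co-receptors such as CD28 and CD5. GATA3 and TCF7 are transcription factors that commit progenitors to the T lineage. T lymphoma lines keep much of that programme while growing continuously, with high glycolysis and ribosome production.

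The 2 sets of control cells were sequenced to a like depth. Whole reads recovered from the TPM values ranged from 177580 to 379314 per cell in WT1 (median 247586) and from 143112 to 405404 in WT2 (median 230477). WT1 cells had 3525 to 6534 genes above 0 and WT2 cells 3630 to 6484. No pair of cells held identical values. The reads carry no molecular identifiers, so every interval below covers counting error only.

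T-lineage genes were read in both cultures, with CD3 chains and TCF7 among the abundant messages. Cd3g, a chain of the receptor complex, had a lowest, median and highest level of 451, 1922 and 7222 TPM over WT1 cells and of 825, 2916 and 6051 TPM over WT2 cells. Cd3d, another chain, stood at 2679 ± 911 TPM in WT1 and 2161 ± 881 TPM in WT2 (SD over 24 and 23 cells, as in all values below). Both chains were above 0 in every control cell, and the ranges of the cultures overlapped widely. Tcf7 stood at 2627 ± 1501 TPM in WT1 and 2063 ± 1195 TPM in WT2. Lck, the receptor's proximal kinase, stood at 1487 ± 828 and 1687 ± 1224 TPM, and Tox, a regulator of T-cell development, at 697 ± 492 and 816 ± 580 TPM.

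Of the 4 T-cell genes that the study followed before, Gata3 and Cd28 lay on opposite sides of a 2-fold difference. The difference given throughout is log2(mean TPM + 1) of WT2 minus the same of WT1. Gata3 ranged over WT1 cells from 282 to 2099 TPM with a median of 874, and over WT2 cells from 65.3 to 1334 TPM with a median of 338. WT2 cells were thus mostly low and WT1 cells mostly high, but the ranges overlapped, and the WT2 cell was the higher in 17.6% of all pairs of 1 cell from each culture. The mean was 882 ± 429 TPM in WT1 and 426 ± 313 TPM in WT2, a log2 difference of -1.05. The knockdown cultures of the same experiments differed by -0.43.

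Cd28, which encodes the co-stimulatory receptor, was a low gene, at 13.7 ± 12.2 TPM in WT1 (21 of 24 cells above 0) and 29.6 ± 27.8 TPM in WT2 (19 of 23 cells). Its log2 difference of 1.06 fell to 0.90 when summed reads scaled to depth were used in place of TPM and to 0.50 when adjusted for transcript GC content and length, an adjustment chosen after the data were seen. Thy1, the CD90 surface antigen of mouse T cells, stood at 169 ± 72.4 TPM in WT1 and 129 ± 97.7 TPM in WT2, with 1 WT2 cell at 0. Cd5, a negative regulator of receptor signalling, was on in some cells and off in others in both cultures. It was above 0 in 14 of 24 WT1 cells (58.3%, exact binomial interval at 95% 36.6 to 77.9%) and in 15 of 23 WT2 cells (65.2%, interval 42.7 to 83.6%), and its mean was 158 ± 228 TPM and 129 ± 212 TPM.

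Ctcf, the target of the knockdown elsewhere in the study, stood at 60.3 ± 76.8 TPM in WT1 and 37.1 ± 45.5 TPM in WT2, above 0 in 19 of 24 and 17 of 23 cells. Gapdh, to which the study scaled its qPCR, stood at 1000 ± 416 TPM and 1117 ± 367 TPM. Neither gene passed 2-fold between the control cultures.

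**Figure D1:**
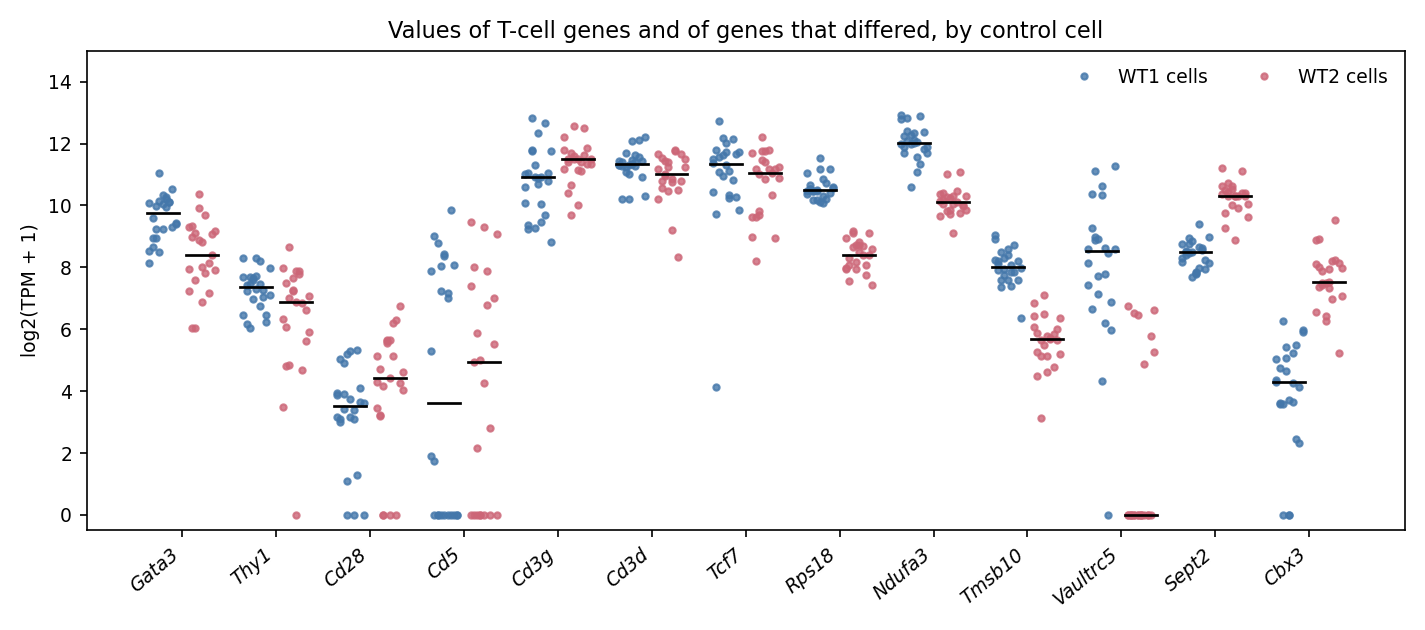
Level of 13 genes in each control cell as log2(TPM + 1), with WT1 cells in blue, WT2 cells in red and a black line at the median of each culture. The Rps18 points of the cultures do not overlap, Cd5 has many cells at 0 in both, and the Cd3d and Tcf7 points of both cultures overlap widely.

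Defining markers of other lineages were at or near 0. All 7 listed erythroid and megakaryocyte markers and all 9 listed NK-cell markers were at 0 in every control cell. Of 12 myeloid markers 11 were at 0, and Itgam was above 0 in 1 cell of each culture with a mean of 0.178 and 0.119 TPM. The summed B-cell markers reached at most 99.0 TPM in a WT1 cell and 136 TPM in a WT2 cell, with 6 of 8 at 0 in all control cells. Of 10 fibroblast and epithelial markers 7 were at 0, and the others had a summed level of at most 4.08 TPM in WT1 and 195 TPM in WT2. Within the T lineage, Cd8a, Cd8b1, Ctla4, Cd7 and Eomes were listed at 0 in every control cell, and Cd4 was above 0 in 1 cell of each culture. The receptor constant-region genes were not analysed here.

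The most abundant messages were those of glycolysis, ribosomes, iron storage, metal binding and the cytoskeleton. The 20 genes of highest mean level held 16.9% of the TPM of WT1 and 13.4% of that of WT2, and 18 of the 20 highest in WT1 were also among the 20 highest in WT2. All 20 were above 0 in every control cell, as were 489 genes in all of 12224 seen in any control cell. Aldoa, the glycolytic aldolase, led with 23920 ± 9377 TPM in WT1 and 19668 ± 5087 TPM in WT2. Further glycolytic genes followed, with Ldha at 7034 ± 2433 and 6529 ± 1600 TPM and Pkm at 5814 ± 1801 and 4992 ± 1640 TPM. Ribosomal protein genes among the 20 included Rps14, Rpl32, Rpl8, Rplp0, Rps3 and Rps9, with Rps14 at 7950 ± 2210 and 4789 ± 1108 TPM. The elongation factor gene Eef1a1 stood at 5553 ± 1439 and 6155 ± 1334 TPM, and Rack1, a scaffold on the small ribosomal subunit, at 6947 ± 1874 and 6688 ± 2079 TPM.

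Among the other abundant genes, Fth1, the ferritin heavy chain that stores iron, stood at 9666 ± 3920 TPM in WT1 and 10709 ± 3601 TPM in WT2. Mt1, a metallothionein that binds zinc and copper, spread from 1552 to 33964 TPM over WT1 cells and from 841 to 17332 TPM over WT2 cells. Actb, the cytoplasmic actin, stood at 9419 ± 3669 and 8370 ± 3766 TPM. B2m, the light chain of MHC class I, stood at 7405 ± 4424 and 7172 ± 3483 TPM. Anxa2, a membrane-binding annexin, stood at 5083 ± 2076 and 6036 ± 3534 TPM, and Lgals1, a secreted galectin, at 5883 ± 3748 and 3358 ± 1084 TPM. Of the 20 genes 17 were lower in WT2, but only Cox6a1 and Sod1 were lower by more than 2-fold. Cox6a1, a subunit of cytochrome c oxidase, ranged from 4447 to 14981 TPM over WT1 cells and from 1679 to 10237 TPM over WT2 cells, a log2 difference of -1.0. Sod1, the cytosolic superoxide dismutase, stood at 6182 ± 2588 TPM in WT1 and 2898 ± 1054 TPM in WT2, a log2 difference of -1.09.

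Across all 11980 genes tested, 2830 (23.6%) were more than 2-fold higher in WT2 and 1735 (14.5%) more than 2-fold lower, with a median log2 difference of 0.19. These counts had no replicate check, and many of the genes were above 0 in few cells. Among the 3833 genes above 0 in at least 24 control cells with a mean of at least 20 TPM, from which the largest differences were taken, 670 were higher and 206 lower by that measure. The log2 levels of the 2 cultures correlated across genes with a Spearman's rho of 0.85 and a Pearson's r of 0.86, where genes are not independent replicates.

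The largest differences towards WT2 included a chromatin protein, a small nucleolar RNA and several messages at 0 in some cells. Cbx3, which encodes the heterochromatin protein HP1 gamma, ranged from 0 to 75.3 TPM over WT1 cells (median 18.6) and from 36.3 to 732 TPM over WT2 cells (median 185). Almost every WT2 cell was above almost every WT1 cell, in 98.9% of pairs. The means of 23.8 ± 20.5 and 235 ± 156 TPM gave a log2 difference of 3.25, and summed reads scaled to RPM (reads relative to the total of the culture) gave 23.3 (exact Poisson interval at 95% 19.6 to 27.4) against 187 (176 to 199). Zfp281, a zinc finger repressor of pluripotency genes, stood at 4.56 ± 6.4 TPM in WT1 and 56.9 ± 117 TPM in WT2 and was above 0 in 12 and 13 cells, so that its log2 difference of 3.38 rested on the level of a few cells. Exosc1, a component of the RNA exosome, was above 0 in 8 of 24 WT1 cells and 18 of 23 WT2 cells, with means of 9.51 ± 23.1 and 83.6 ± 132 TPM. The other genes of the 12 largest on this side were Ccdc18, Ppp2r2d, Jazf1, Mcoln2, Gm14295, Tmed5, Fem1c and Trmt10c, each with a log2 difference between 2.68 and 3.09 and each at 0 in some cells of both cultures.

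Snora28, a box H/ACA small nucleolar RNA of the kind that guides pseudouridine formation in ribosomal RNA, lies inside the host gene Eif5 on the same strand. It stood at 75.6 ± 121 TPM in WT1 and 548 ± 673 TPM in WT2 (log2 difference 2.84), on 27 and 146 reads. The host Eif5, an initiation factor gene looked at after its values were seen, stood at 62.6 ± 45.8 TPM and 141 ± 103 TPM (log2 difference 1.16). Reads of the small RNA and of its host's unspliced transcript cannot be told apart here.

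On the other side stood a vault RNA, an antisense transcript and several short messages. Vaultrc5, a noncoding RNA of the vault particle family, was above 0 in 23 of 24 WT1 cells (exact binomial interval 78.9 to 99.9%) and in 7 of 23 WT2 cells (13.2 to 52.9%). Its mean was 579 ± 689 TPM in WT1 and 21.9 ± 37.6 TPM in WT2, on 605 and 21 reads, and its log2 difference of -4.67 was the lowest among the 3833 genes. Tomm6os, a transcript annotated antisense to Tomm6, stood at 46.6 ± 25.5 TPM in WT1 and 2.55 ± 3.81 TPM in WT2. Tomm6 itself, a subunit of the mitochondrial import pore looked at because of this overlap, stood at 454 ± 210 and 238 ± 127 TPM (log2 difference -0.93). Whether counting used strand is not given in the sources used here, so reads of the pair may be shared.

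Tmsb10, which encodes the actin-monomer binding thymosin beta 10, was above 0 in all control cells. It ranged from 81.5 to 531 TPM over WT1 cells (median 260) and from 7.7 to 138 TPM over WT2 cells (median 50.2), and the WT2 cell was the higher in 0.725% of pairs. Its log2 difference of -2.31 was close to the -2.27 of the knockdown pair. Mt3, a metallothionein, stood at 351 ± 335 TPM in WT1 and 73.9 ± 81.5 TPM in WT2, and Mrps24, a mitochondrial ribosomal protein, at 89.3 ± 107 and 15.2 ± 24.7 TPM. Klc1, Pex5, Pgp, Chkb, Impa2, Rce1 and AV051173 completed the 12 lowest, with log2 differences from -3.84 for AV051173 to -2.24 for Rce1.

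Separation of every cell was rare. No gene (0% of 11980) had all WT2 cells above all WT1 cells, and 2 genes (0.0167%) had all WT2 cells below all WT1 cells. One was Rps18, a protein of the small ribosomal subunit (chr17:33951999-33956001 in GENCODE M21 on GRCm38), which ranged from 1075 to 2938 TPM over WT1 cells and from 171 to 582 TPM over WT2 cells. The other was Gm15772, annotated as a processed pseudogene and named after its values were seen, which ranged from 594 to 1537 TPM over WT1 cells and from 115 to 538 TPM over WT2 cells. Only uniquely mapped reads were counted, so levels of genes with near-identical copies, as ribosomal protein genes and Gapdh have, are uncertain.

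The knockdown pair was set beside the control pair. Its cultures were less alike in depth, with a median of 234260 reads per cell in CTCFKD1 and 131098 in CTCFKD2. The lowest CTCFKD2 cell had 41591 reads. The most alike pair of CTCFKD1 cells had a Spearman correlation of 0.906 over all genes tested, beside a median of 0.567 within that culture. The highest was 0.586 within WT1 and 0.585 within WT2. Over all 11980 genes tested, 67% of those more than 2-fold higher in WT2 were also higher in CTCFKD2 than in CTCFKD1, against 57.1% of all, and 54.3% of those lower in WT2 were lower in CTCFKD2, against 41.2%. By the 2-fold measure 855 (30.2%) and 432 (24.9%) of them passed in the same direction in the knockdown pair. In the opposite direction 291 and 295 passed. Of all 11980 genes 19.7% were more than 2-fold higher and 12.5% more than 2-fold lower in that pair. Shares in the same direction were higher among the 3833 better-read genes. Of the 670 genes more than 2-fold higher in WT2, 574 (85.7%) were also higher in CTCFKD2, against 63.1% of all 3833 genes. Of the 206 lower in WT2, 146 (70.9%) were lower in CTCFKD2, against 36.9% of all 3833. By the 2-fold measure 242 (36.1%) and 61 (29.6%) of them passed in the same direction in the knockdown pair, and 7 and 5 passed in the opposite direction. Of all 3833 genes 14.6% were more than 2-fold higher and 4.36% more than 2-fold lower in that pair. Across the 3833 genes the differences of the pairs had a Spearman's rho of 0.48 and a Pearson's r of 0.49, and across all 11980 the rho was 0.22 and the r 0.18. Cbx3 differed by 2.77 between the knockdown cultures, Snora28 by 2.63 and Vaultrc5 by -3.08, while Klc1 differed by 0.20 and Exosc1 by 0.08.

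**Figure D2:**
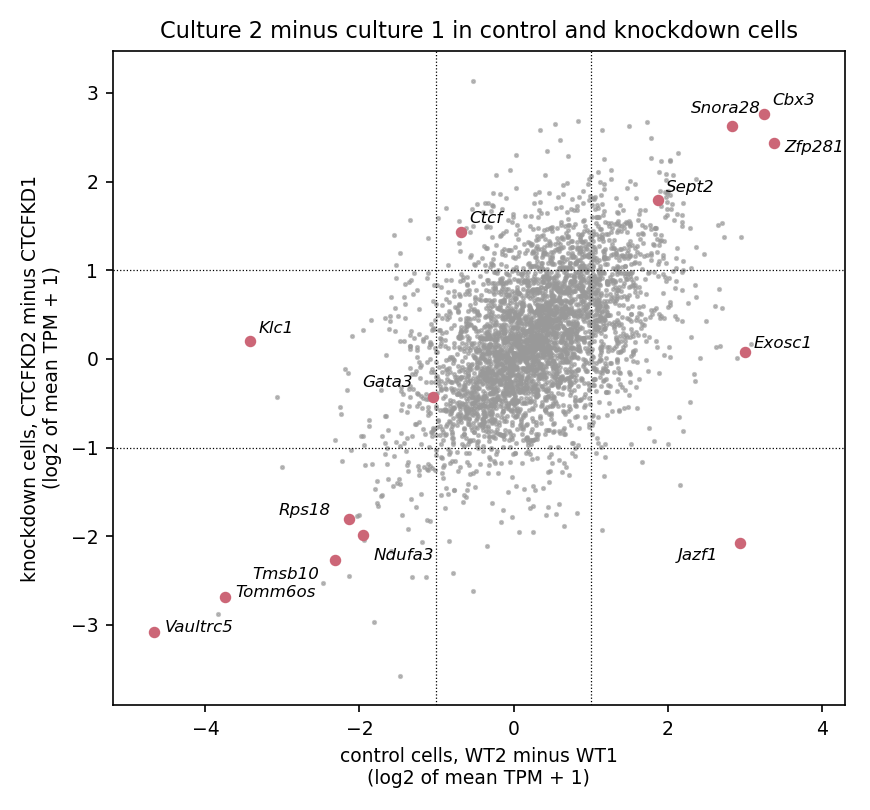
Log2 difference of mean TPM + 1 between culture 2 and culture 1 in control cells (horizontal) and in knockdown cells (vertical), 1 point for each of 3833 genes, with dotted lines at 2-fold and named genes in red. Cbx3, Snora28, Sept2 and Zfp281 lie at the upper right, Vaultrc5, Tomm6os, Tmsb10, Rps18 and Ndufa3 at the lower left, and Jazf1 at the lower right.

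With the knockdown pair as a second pair, the difference between the experiments could be tested over 4 cultures in limma, with condition as a term and 1 residual degree of freedom. At a Benjamini-Hochberg adjusted p under 0.05 no gene (0%) was higher in experiment 2 and 1 gene (0.00835% of 11980) was lower. Without adjustment 1022 and 523 genes had p under 0.05. The gene was Ndufa3, a subunit of respiratory complex I, whose cells ranged from 1561 to 7737 TPM in WT1 and from 550 to 2186 TPM in WT2. Its mean fell from 4504 ± 1656 to 1160 ± 365 TPM, and the limma coefficient was -1.97 with an SE of 0.118 and an adjusted p of 0.048. When testing was kept to the 7724 genes whose log2(TPM + 1) passed 1 in 24 or more cells, limma called 71 genes higher (0.919%) and 73 lower (0.945%) in experiment 2. With the same filter and adjustment for GC content and length, chosen after the data were seen, limma called none higher and only Ndufa3 and Sod1 lower (adjusted p 0.0277 for both). The log2 difference of Ndufa3 was -1.96 in the control pair and -1.99 in the knockdown pair. Fits that left out 1 culture could not check the Ndufa3 call, because they also dropped the condition term and left 1 culture in an experiment.

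After Ndufa3, the lowest limma statistics were those of Rps18, Ftl1, Rps21 and Rplp1 and the highest those of Sept2, Snora28, Cbx3, Impact and Srsf2. Sept2, a septin of the cytoskeleton, ranged from 205 to 676 TPM over WT1 cells and from 476 to 2372 TPM over WT2 cells, with the WT2 cell the higher in 99.3% of pairs (means 355 ± 111 and 1303 ± 437 TPM). Srsf2, a splicing factor, stood at 558 ± 311 TPM in WT1 and 1598 ± 983 TPM in WT2. Impact, a regulator of the kinase GCN2, stood at 312 ± 261 and 843 ± 690 TPM. Ftl1, the ferritin light chain, stood at 3902 ± 2360 TPM in WT1 and 1265 ± 459 TPM in WT2, while the heavy chain Fth1 differed by only 0.15 on the log2 scale. Rps21 stood at 1454 ± 586 and 427 ± 186 TPM, and Rplp1, an acidic stalk protein of the ribosome, at 4747 ± 1473 and 2036 ± 586 TPM. Adjusted p over all 11980 genes was between 0.0546 and 0.0919 for these 9 genes in limma with Benjamini-Hochberg adjustment, and all 9 passed when only the 7724 genes in at least 24 cells were tested (adjusted p 0.000858 to 0.00546). None of the 9 passed once those genes were also adjusted for GC content and length (adjusted p 0.0790 to 0.210). The 9 were chosen by statistics of the same cultures, so passing under the filter adds no separate support.

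Base composition moved with the difference between the cultures. Messages rich in A and T tended to be higher in WT2, and messages rich in G and C lower. The sequences below were picked to make that contrast visible, and not every named gene shows it as clearly. They are bases 151 to 300 of the coding sequence of 4 genes from the rules above, and the whole of Snora28, from GENCODE M21 on GRCm38, 5′ to 3′, with every G and C in capitals. Cbx3 (chr6:51471845-51482603, plus strand) and Tmed5 (chr5:108124544-108132424, minus strand) were higher in WT2, as was Snora28 (chr12:111540941-111541067, plus strand), and Cox6a1 (chr5:115345846-115348950, minus strand) and Rplp1 (chr9:61913327-61914428, minus strand) were lower.
Cbx3: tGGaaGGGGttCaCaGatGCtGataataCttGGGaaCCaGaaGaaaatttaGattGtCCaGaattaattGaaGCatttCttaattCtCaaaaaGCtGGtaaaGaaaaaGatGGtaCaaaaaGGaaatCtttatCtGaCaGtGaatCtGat
Tmed5: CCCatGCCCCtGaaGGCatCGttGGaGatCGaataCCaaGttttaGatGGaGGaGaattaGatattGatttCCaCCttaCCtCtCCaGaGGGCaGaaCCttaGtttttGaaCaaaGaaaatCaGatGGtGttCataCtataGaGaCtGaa
Snora28: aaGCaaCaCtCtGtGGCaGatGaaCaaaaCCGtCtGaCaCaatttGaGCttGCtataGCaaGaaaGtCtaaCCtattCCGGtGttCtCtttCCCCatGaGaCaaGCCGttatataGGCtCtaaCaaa
Cox6a1: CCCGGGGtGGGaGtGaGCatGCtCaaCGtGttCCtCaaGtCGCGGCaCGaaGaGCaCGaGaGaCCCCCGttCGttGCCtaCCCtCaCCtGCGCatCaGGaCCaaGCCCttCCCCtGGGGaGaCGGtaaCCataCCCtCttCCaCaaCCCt
Rplp1: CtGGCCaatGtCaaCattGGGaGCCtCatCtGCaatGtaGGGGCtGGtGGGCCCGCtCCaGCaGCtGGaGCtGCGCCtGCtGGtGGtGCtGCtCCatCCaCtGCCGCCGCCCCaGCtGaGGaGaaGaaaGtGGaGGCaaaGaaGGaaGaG

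G and C made up 33.3% of the bases shown for Cbx3, 41.3% for Tmed5, 42.5% for Snora28 and 62% for both Cox6a1 and Rplp1. Over the longest annotated transcript the GC content was 38.7% for Cbx3, 35% for Tmed5, 62.7% for Cox6a1 and 57.3% for Rplp1. Snora28 is a small RNA and not a message, and adjustment for GC content and length did not lower its log2 difference (2.84 before and 3.03 after). That of Tmed5 went from 2.71 to 1.78. Tmed5, a cargo receptor of the early secretory pathway, stood at 18.2 ± 29.9 TPM in WT1 and 125 ± 286 TPM in WT2, a mean raised by 1 WT2 cell at 1379 TPM.

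The 3732 of these 3833 genes that had a transcript in the annotation were put in 6 bins of 622 by GC content. The median log2 difference was 0.85 in the bin of lowest GC content, then 0.55, 0.30, 0.16 and -0.00, and was -0.26 in the bin of highest GC content. In the lowest bin 42.3% of genes were more than 2-fold higher in WT2 and 0.482% lower, and in the highest bin 4.66% were higher and 13.7% lower. The knockdown pair gave medians of 0.81, 0.52, 0.32, 0.16, -0.07 and -0.29 in the same bins. Spearman's rho between difference and GC content was -0.46 in the control pair and -0.52 in the knockdown pair, and -0.45 and -0.51 with the GC content of the coding sequence alone. Over all 11622 genes tested that had a transcript, rho with GC content was -0.27 in the control pair and -0.30 in the knockdown pair. Transcript length moved with the difference less closely (rho 0.22 and 0.30). Among transcripts below the median length the bin medians went from 0.53 to -0.22, and among longer ones from 0.82 to 0.05. After adjustment for GC content and length, the rho between control and knockdown pair was 0.31.

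**Figure D3:**
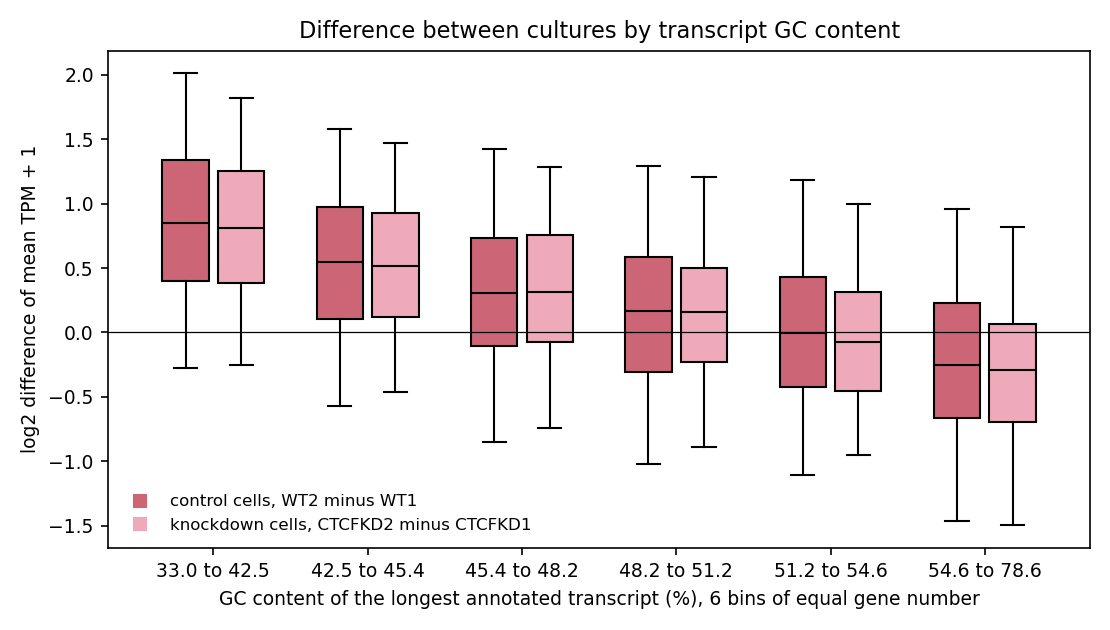
Log2 difference of mean TPM + 1 between culture 2 and culture 1 in 6 bins of transcript GC content, 622 genes each, for control (dark) and knockdown (light) cells. Boxes give quartiles and median, whiskers the 5th to 95th percentile, and the medians go from 0.85 at the left to -0.26 at the right in control cells.

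Every single cell followed its culture in this measure. Transcripts of less than 45% GC held 12.5 to 16.5% of the TPM of a WT1 cell (median 14.8%) and 18.9 to 26.6% of that of a WT2 cell (median 21.7%), so all 23 WT2 cells lay above all 24 WT1 cells. Transcripts of 55% GC or more held 23.4 to 27.8% of the TPM of a WT1 cell and 16 to 22.3% of that of a WT2 cell. The knockdown cells split in the same way, with 12.7 to 16.4% in CTCFKD1 and 19.4 to 24.5% in CTCFKD2 for the transcripts of low GC content. In a principal component analysis of the control cells the first component, with 6.01% of the variance, followed the number of genes detected (r = 0.84), and the third, with 2.95%, separated all WT1 from all WT2 cells and followed the mean GC content of the reads (r = -0.88, a description over 47 cells of 2 cultures). The part of base composition in the difference of any 1 gene was not tested.

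**Figure D4:**
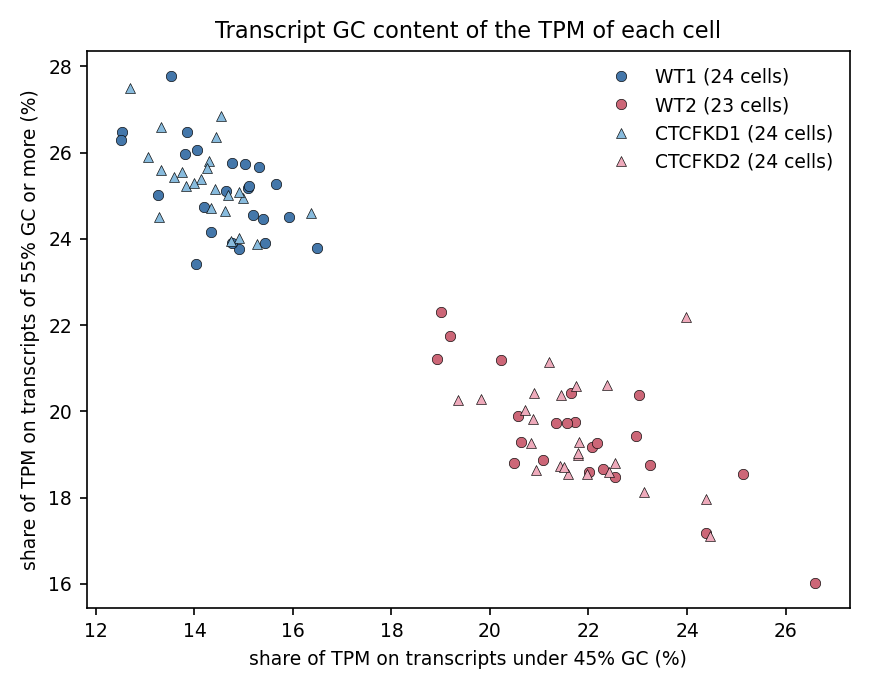
Share of TPM on transcripts under 45% GC (horizontal) and of 55% GC or more (vertical) in each cell, with circles for control and triangles for knockdown cells. Cells of WT1 and CTCFKD1 lie together at the upper left (12.5 to 16.5% horizontally) and cells of WT2 and CTCFKD2 at the lower right (18.9 to 26.6%).

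The gene lists below are described by their counts and medians, beside the 23.6% higher, 14.5% lower and median of 0.19 over all genes. Among lists with at least 10 members tested, the cohesin list and the genes of G1/S and DNA replication had the highest medians. After adjustment for GC content and length the highest medians were those of G1/S and DNA replication at 0.91 and of autophagy and lysosome at 0.77, and that of the cohesin list was 0.54. Of 30 replication genes 15 were more than 2-fold higher in WT2 and none was more than 2-fold lower, with a median log2 difference of 1.00. With the mean over cells of log2(TPM + 1) the share of them higher was 26.7% in place of 50.0% and the median 0.59. The knockdown pair had a median of only 0.21. Ccne2, the S-phase cyclin E2, was above 0 in 7 of 24 WT1 cells and 14 of 23 WT2 cells and stood at 3.69 ± 11.1 and 55.3 ± 111 TPM. Rrm2, the ribonucleotide reductase subunit that limits DNA synthesis, ranged from 0 to 1532 TPM over WT1 cells (median 112) and from 0 to 2881 TPM over WT2 cells (median 378). Pola1 and Prim1, which make the primers of replication, stood at 1.94 ± 4.8 and 29.1 ± 55 TPM and at 15.5 ± 42.6 and 77 ± 139 TPM. Mcm3, part of the replicative helicase, stood at 153 ± 245 and 351 ± 476 TPM, and Rrm1 at 177 ± 176 and 332 ± 400 TPM. The spread over cells was as large as these differences, and the summed level of the list ran from 143 to 5854 TPM in WT1 and from 238 to 12221 TPM in WT2. Of the 30 G2/M and mitosis genes 2 were higher and 2 lower, with a median of 0.23. Top2a, the DNA topoisomerase of dividing cells, stood at 308 ± 379 and 492 ± 532 TPM.

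Of the 16 genes of Ctcf, cohesin and its loader, 10 were higher and 1 lower in WT2 (median 1.08, and 0.84 in the knockdown pair), and 5 and none after adjustment for GC content and length (median 0.54). Their transcripts had a median GC content of 42.8%. Wapl, which releases cohesin from DNA, was above 0 in all control cells and ranged from 15.3 to 123 TPM over WT1 cells and from 44.8 to 476 TPM over WT2 cells. Rad21, the cleavable ring subunit, stood at 100.3 ± 118 and 165 ± 158 TPM. Esco1, a cohesin acetyltransferase, stood at 14.4 ± 14.6 and 57.2 ± 85.6 TPM, and Pds5b, a regulator of the ring, at 15.7 ± 27.4 and 55.5 ± 72.1 TPM. The member that was lower was Maz, a zinc finger protein that binds GC-rich DNA, at 242 ± 200 TPM in WT1 and 96.4 ± 98.4 TPM in WT2.

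Ribosomal protein genes were lower as a share of the TPM in WT2, at a median of 7.61% per cell (4.97 to 9.28%) against 10.0% in WT1 (7.33 to 15%). Of 77 members 3 were more than 2-fold higher and 13 (16.9%) more than 2-fold lower, with a median of -0.19, and after adjustment for GC content and length 9.09% were lower and the median was -0.05. Limma over the genes in at least 24 cells called 16 of the 77 lower in experiment 2 and none higher, without that adjustment. Of all 7724 genes so tested 0.945% were called lower. With the adjustment none of the 77 was called. Among the 3833 better-read genes as a whole 5.37% were more than 2-fold lower. Rps10 was the second lowest after Rps18, at 373 ± 100 TPM in WT1 and 109 ± 92.6 TPM in WT2. Of 44 nuclear-encoded oxidative phosphorylation genes none was more than 2-fold higher and 3 were more than 2-fold lower (Cox6a1, Ndufa2 and Sdhc), with a median of -0.31. After adjustment for GC content and length the median was 0.07, and 4 of the 44 were more than 2-fold lower. Ndufa2, another subunit of complex I, stood at 1684 ± 852 and 606 ± 339 TPM, and Cox4i1, a subunit of cytochrome c oxidase, at 3956 ± 1213 and 3198 ± 1416 TPM. Ndufa3 was not on that list. Limma with the same filter and without adjustment called 8 of the 44 lower and none higher. Of 19 glycolysis genes 1 was higher and none lower, with a median of 0.01.

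The T-cell genes were split into surface molecules, receptor signalling and transcription factors. Of 20 surface molecules 7 were higher in WT2 and none was lower (median 0.50, and 0.08 in the knockdown pair). With the mean over cells of log2(TPM + 1) 10.0% were higher and 5.0% lower, with a median of 0.18. Only Cd69 among the 7 was both abundant and read in most cells. Cd69, an early activation antigen, ranged from 21.5 to 1299 TPM over WT1 cells (median 319) and from 0 to 4378 TPM over WT2 cells (median 874), a log2 difference of 1.75, and of 0.85 after adjustment for GC content and length (transcript GC 35.9%). In limma it had an adjusted p of 0.170 over all genes and of 0.0234 over genes in at least 24 cells. It was not called with that filter and adjustment for GC content and length. Il7r and Il2ra, the receptor chains for interleukins 7 and 2, were above 0 in 4 and 1 WT1 cells and 4 and 3 WT2 cells, so their log2 differences of 3.51 and 3.31 came from very few cells. Ly6e stood at 2646 ± 1334 and 3394 ± 1282 TPM, and Pdcd1, the inhibitory receptor PD-1, at 2095 ± 2116 and 1765 ± 2295 TPM.

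Of 17 genes of the receptor complex and its proximal signalling 1 was higher and 2 were lower, with a median of -0.11, and the 2 lower ones, Cd247 and Vav1, were above 0 in 6 and 10 WT1 cells and in 3 and 11 WT2 cells. Of 21 T-lineage transcription factors 4 were higher and 3 lower (median 0.21). By the mean of log values 4.76% of these factors and 0% of the receptor list were higher. Gata3 was the most abundant of the 3 lower ones. Tcf3, the E protein E2A, stood at 14.3 ± 42.7 and 0.917 ± 1.98 TPM, and Zeb1, a zinc finger repressor, was among the higher ones at 23.9 ± 38.4 and 64.6 ± 83.5 TPM.

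The lowest medians among lists of that size were those of the integrated stress response and of NF-kB targets. With the mean of log values, however, the median of the NF-kB targets was -0.17 and several lists lay lower, MHC class I at -0.28 among them. Of 22 genes of the integrated stress response, the ATF4-driven answer to amino acid shortage, none was more than 2-fold higher in WT2 and 6 were lower, with a median of -0.49 and of 0.01 in the knockdown pair. The share lower, 27.3%, was 9.09% among genes above 1 in at least 24 control cells and 31.8% with the mean of log values. The summed level of the list had a median over cells of 4368 TPM in WT1 and 4364 TPM in WT2 (means 5847 and 4770 TPM). Trib3, a target that restrains ATF4, was above 0 in 7 of 24 WT1 cells with a highest value of 933 TPM and in 5 of 23 WT2 cells with a highest value of 59.2 TPM. Ddit4, an inhibitor of mTORC1, was above 0 in 16 and 5 cells. Atf4 itself stood at 434 ± 321 and 472 ± 302 TPM, and Asns, asparagine synthetase, at 2396 ± 1185 and 2044 ± 1225 TPM. Of 12 NF-kB targets 1 was higher and 2 were lower (median -0.55, and -0.49 in the knockdown pair). The median of -0.55 became -0.31 after adjustment for GC content and length. Nfkbia, the inhibitor that NF-kB induces, ranged from 113 to 2530 TPM over WT1 cells and from 7.86 to 1385 TPM over WT2 cells, a log2 difference of -1.08 beside -1.21 in the knockdown pair.

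Among the remaining lists, autophagy and lysosome genes had 5 of 17 members higher and 1 lower (median 0.59), led by Atg7 and Atg5, which were above 0 in at most 8 cells of either culture. In the knockdown pair 2 members of that list were higher and 4 lower (median 0.11). Genes of rRNA processing had 12 of 50 higher and 2 lower (median 0.28), and Npm1, the abundant nucleolar chaperone among them, stood at 816 ± 210 and 1178 ± 384 TPM. Proteasome genes had 4 of 30 higher and 1 lower (median 0.08), with Psma3 at 64.4 ± 38.8 TPM in WT1 and 231 ± 153 TPM in WT2. Eif3e, of 22 translation factor genes, stood at 322 ± 165 and 899 ± 517 TPM.

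**Figure D5:**
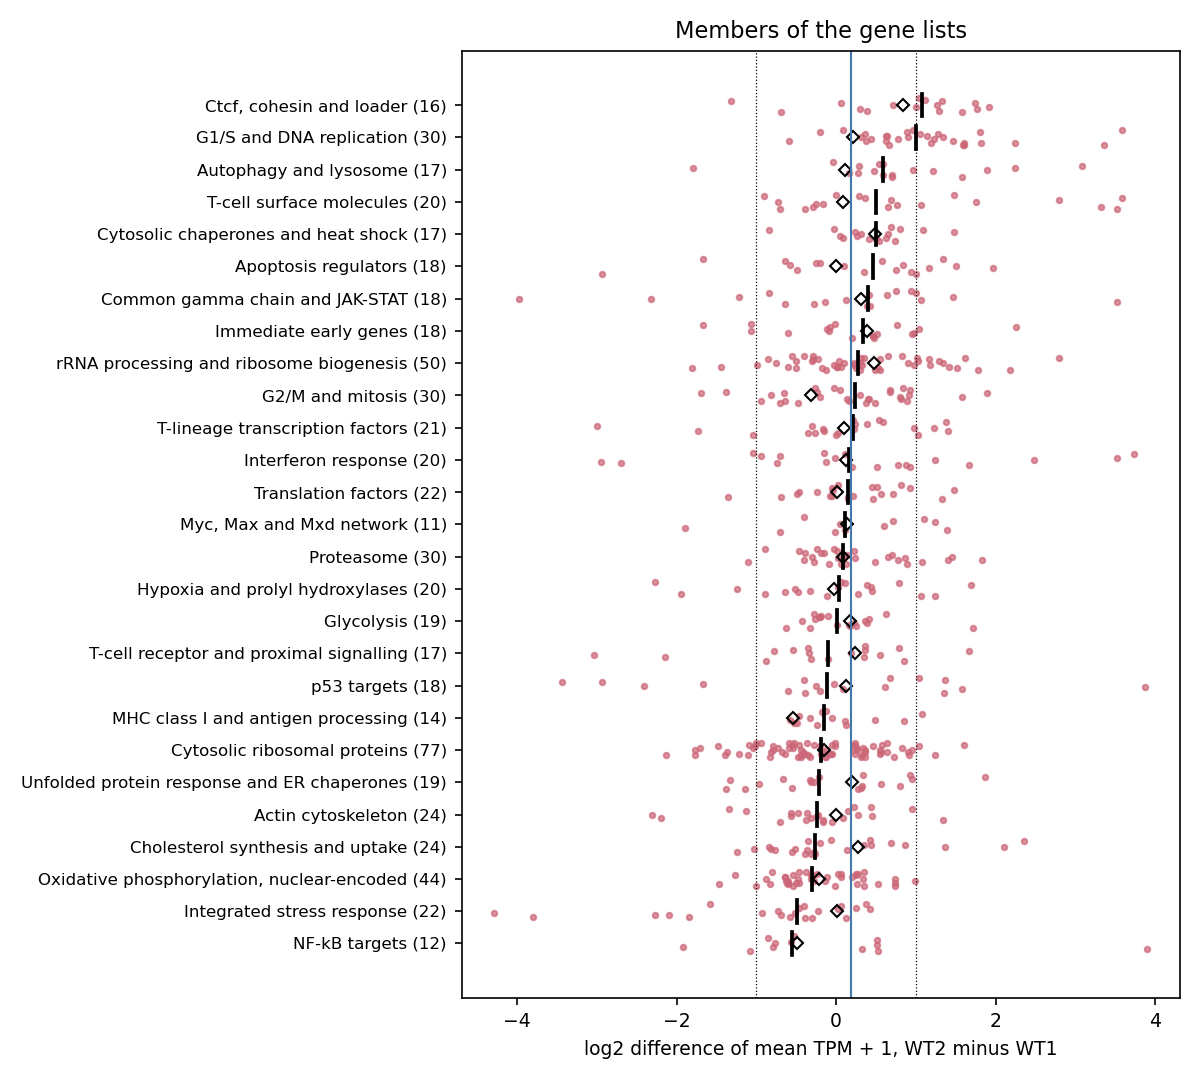
Log2 difference of mean TPM + 1, WT2 minus WT1, of each member of the gene lists with at least 10 members tested (red points, number tested in brackets), with a black bar at the list's median, an open diamond at its median in the knockdown pair, a blue line at 0.19, the median of all genes, and dotted lines at 2-fold. The cohesin and the G1/S lists stand highest at medians of 1.08 and 1.00, and the NF-kB targets lowest at -0.55.

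Cell-to-cell variation ranked genes alike in both cultures. The coefficient of variation (CV, or SD divided by mean, of log2(TPM + 1)) had a median over 6607 genes of 0.915 in WT1 and 0.951 in WT2. Taken relative to genes of like mean, it correlated between the cultures across the 1937 genes with a mean above 4 with a rho of 0.73. Pdcd1 was among the most variable for its level in both cultures, from 0 to 7716 TPM over WT1 cells and from 0 to 10752 TPM over WT2 cells. Insl5, an insulin-family hormone gene, was above 0 in 18 and 20 cells and reached 5576 and 2681 TPM. Fos, the immediate early transcription factor, ran from 3.33 to 3357 and from 17.8 to 3602 TPM, and Perp, a p53 target, from 20.8 to 8386 and from 0 to 6044 TPM. Cope, Ndufs7, Idh3g and Tspan32 were the other variable genes.

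The 8 steadiest genes for their level included 4 ribosomal protein genes. Rps20 ran from 174 to 429 TPM over WT1 cells and from 227 to 495 TPM over WT2 cells, and Rpl6 from 166 to 401 and from 71.2 to 358 TPM. Rps15a and Rps4x were the others of that kind. The ribosome-associated Naca was also steady, as were Alkbh5, an RNA demethylase, and Kmt2d, a histone methyltransferase at 87.1 ± 34.7 TPM in WT1 and 41 ± 18.3 TPM in WT2. Cand2, at 175 ± 49.8 and 195 ± 67.2 TPM, overlaps the abundant Rpl32 on the opposite strand, so its reads may be shared.

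How alike cells were within and between cultures depended on the measure. The median Spearman correlation between cells was 0.00805 higher within than between cultures over all genes tested and 0.0463 higher over the genes above 0 in all control cells. The most similar cell came from the same culture for 36 of 47 cells by the first measure and for 46 by the second. By Spearman correlation over all genes tested, 24 of 24 WT1 cells and 14 of 23 WT2 cells were closer on average to their own culture, by Pearson correlation 24 of 24 and 5 of 23 were, and over the genes above 0 in all control cells 24 of 24 and 21 of 23.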

How the data were processed

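Per the labels and the study's methods, the authors mapped reads of single EL4 cells to GRCm38 using STAR, counted unique alignments per gene and deposited TPM, a unit that corrects for gene length and sums to the same total in every cell. No cell had been filtered out of the table of 24057 genes. Whole reads were recovered from the steps of the TPM values (100% of 504605 values above 0 within 0.001 of a whole read, taking the smallest step as 1 read). A gene was tested if its log2(TPM + 1) passed 1 in 2 or more cells. Culture means were compared as log2(mean TPM + 1), and limma (eBayes with trend) was run on the 4 culture values with condition and experiment as terms, with Benjamini-Hochberg adjustment over all genes. Calculations were made in Python 3.11.15 (pandas 2.3.3, statsmodels 0.14.6) and were tested on simulated data. Transcript GC content, length and positions came from GENCODE M21 (23219 genes matched).

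The genes named were Gata3, Thy1, Cd28, Cd5, Ctcf and Gapdh, the 20 most abundant, the 12 largest differences in each direction among genes above 0 in at least 24 control cells with a mean of at least 20 TPM, up to 3 members of each of 33 lists by difference and 3 by level, the 5 highest and 5 lowest limma statistics, and the 8 most variable and 8 steadiest genes. Not every gene of the rule is printed, and some items are not reported here. The cells, lists and tests were chosen with earlier results of these data known. Samples were grouped by the titles in the labels.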

Additional observations from a re-analysis of the deposited data

Results flagged for a closer look

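The 10 genes that follow were flagged because they lay more than 2-fold in one direction between the control cultures and more than 2-fold in the other between the knockdown cultures. They are a selection. Over all genes tested, 291 of the 2830 genes more than 2-fold higher in WT2 passed 2-fold in the opposite direction in the knockdown pair. So did 295 of the 1735 genes more than 2-fold lower in WT2. The difference between the pairs was not tested, since each pair has 1 culture per side. Jazf1, a zinc finger transcription cofactor, differed by 2.95 between WT2 and WT1 on the log2 scale and by -2.08 between CTCFKD2 and CTCFKD1. Tap2, a subunit of the peptide transporter for MHC class I, differed by 1.07 and -1.06. Hmox1, the heme oxygenase, differed by -1.47 and 1.20, with 17 of 24 WT1 cells and 12 of 23 WT2 cells above 0. Polr1b, a subunit of RNA polymerase I, differed by -1.81 and 1.04, and Bbc3, the proapoptotic PUMA, by -1.67 and 1.04. Atg7, an autophagy enzyme, differed by 3.08 and -1.51 and was above 0 in 7 cells of each control culture.

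The other 4 rested on 3 or fewer control cells per culture. Pdgfrb, a growth factor receptor of mesenchymal cells, differed by 2.94 and -1.77. Nupr1, a stress-induced transcription regulator, was listed at 0 in all WT2 cells and had 29 reads in 2 WT1 cells, with values of -3.80 and 2.25. Mx2, an interferon-induced GTPase, was listed at 0 in all WT2 cells and had 38 reads in 2 WT1 cells, with values of -2.95 and 1.83. Isg15, an interferon-induced modifier, was listed at 0 in all WT1 cells and had 25 reads in 1 WT2 cell, with values of 3.52 and -1.52. Where a culture is at 0 the value depends on the pseudocount of 1 and is no bound on the fold.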

How the results depend on the processing

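The number of genes past 2-fold between WT2 and WT1 depended on how cells were averaged and which genes were kept. With the mean over cells of log2(TPM + 1), 1111 genes were higher and 853 lower, with a pseudocount of 10 it was 1278 and 636, and with only genes above 1 in at least 24 control cells 772 and 242, where 76.1% of the genes past 2-fold were higher against 62% in the main comparison. Depth-scaled reads (RPM), centring on the median, a pseudocount of 0.1, thinning, a minimum of 4000 genes per cell and adjustment for GC content and length kept both counts within 1.5 times of 2830 and 1735. The balance of directions moved more. Of the genes past 2-fold, 54.1% were higher with RPM, 52.2% with centring, 56.6% with the mean of log values and 66.8% with a pseudocount of 10. The median difference over all genes, 0.19 in the main comparison, was 0.02 with RPM and 0.03 with the mean of log values. It was 0 with the highest cell of each culture left out. In limma over 4 cultures the genes higher and lower in experiment 2 numbered 7 and 33 with the mean of log values, 9 and 15 with no filter on low values, 71 and 73 with genes in at least 24 cells, 0 and 0 with a pseudocount of 10, 0 and 0 without the condition term (629 and 316 at an unadjusted p under 0.05), 0 and 0 after adjustment for GC content and length, and 0 and 2 with that adjustment and genes in at least 24 cells. Fits that left out 1 culture also had no condition term, so the difference between control and knockdown cells entered their error. Their counts are not given. Cd28 was under 2-fold in 5 of the alternatives (0.50 to 0.90), Impact in 2, and Rplp1 after adjustment for GC content and length (-0.50). The gain in correlation within cultures was 0.00805 over all genes and 0.0463 over genes above 0 in all control cells. The cause of these shifts was not tested. No paired analysis was possible because the cells share no replicate number across cultures, and no p can be given for WT2 against WT1 with 1 culture each.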

Other observations

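Counts for hypoxia, unfolded protein response and immediate early genes, from the same lists, stand beside 23.6% higher and 14.5% lower over all genes. Of 20 hypoxia genes 3 were more than 2-fold higher in WT2 and 3 lower (median 0.04). Ero1l, an oxidoreductase of the endoplasmic reticulum induced by low oxygen, ranged from 53.7 to 3488 TPM over WT1 cells and from 16.5 to 1061 TPM over WT2 cells, and Hif1a stood at 20.6 ± 28.2 and 68.9 ± 113 TPM. Of 19 genes of the unfolded protein response 1 was higher and 3 lower (median -0.21). Canx, the lectin chaperone calnexin, stood at 553 ± 339 TPM in WT1 and 1075 ± 377 TPM in WT2, a log2 difference of 0.96 beside 1.16 in the knockdown pair, and of 0.47 after adjustment for GC content and length.

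Of 18 immediate early genes 2 were more than 2-fold higher and 3 lower (median 0.33). Egr1 stood at 344 ± 282 and 710 ± 613 TPM (log2 difference 1.04, and 0.92 in the knockdown pair), while Junb stood at 161 ± 200 and 75.8 ± 96.7 TPM. Trp53, which encodes p53, stood at 208 ± 230 and 534 ± 501 TPM, with 18 of 24 and 22 of 23 cells above 0, and differed by 1.35 in the control pair and by 0.08 in the knockdown pair. Myc stood at 241 ± 266 and 238 ± 278 TPM, a difference far below the spread over cells.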
